A study of Mus musculus with 8 samples.

Results

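Calponins and the actin-depolymerising factors are small proteins that act directly on actin filaments, and 7 of their genes were followed here across fetal and adult blood stem and progenitor cells of mice. They are the calponins Cnn1, Cnn2 and Cnn3, the calponin relative Tagln2, and the actin-depolymerising factor family of Dstn, Cfl1 and Cfl2. The genes were chosen by their family and by the log2 intensities of wild-type fetal and adult cells, in which Cnn3 and Dstn had already stood out as far higher in fetal cells. Their probe sets were taken by symbol, from probe sets to which the array's annotation gives exactly 1 gene. This gave 34 of 208881 such probe sets and 7 of 19958 genes. Because of that choice the fetal and adult levels of all 7 genes are described with no test. The comparison of knockout with wild-type fetal cells was not used to choose them and was tested. It reuses the wild-type fetal arrays, so a choice for high values there can push a difference of knockout from wild-type cells below 0.

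Expression was read on Affymetrix Mouse Gene 1.0 ST arrays, where most genes have several probe sets in different exons. The cells of every group were sorted as Lin-Sca1+cKit+, a gate that holds blood stem cells together with early progenitors. Wild-type fetal cells (Hmga2+/+, n = 3) and knockout fetal cells (Hmga2-/-, n = 3) came from livers at embryonic stage E14.5, and wild-type adult cells (Hmga2+/+, n = 2) from bone marrow of mice aged 8 to 12 weeks. About 50 ng of RNA per sample was amplified before labelling with biotin. The sources used here do not give the strain, the sex, the deleted part of Hmga2 or the number of animals behind a sample. Samples of a group are biological replicates by their titles, and a p-value here reflects only how far such samples differ. Tissue, age and any difference in handling between fetal liver and adult marrow cannot be told apart.

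Actin filaments grow at one end and are taken apart at the other. Destrin and the cofilins bind the sides of ageing filaments, bend and cut them, and return subunits to the monomer pool, and LIM kinases switch them off by phosphorylation while slingshot phosphatases switch them on. Calponins bind along filaments and are best known for damping myosin activity in smooth muscle, where Cnn1 is a marker of the contractile state, whereas Cnn2 and Cnn3 are found in many non-muscle cells. Blood stem and progenitor cells use actin turnover to migrate, to adhere to their niche and to divide.

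The labels and the gate were checked first. Hmga2, which encodes the chromatin protein removed in the knockout, read 9.24, 9.01 and 8.83 in wild-type fetal cells and 5.89, 5.88 and 6.08 in knockout cells on the log2 intensity scale. The fall was at least 8.10-fold (limma, adjusted p = 0.000448). Kit, a receptor of the gate, was high in every group (means of 9.95, 9.79 and 10.22 in wild-type fetal, knockout fetal and adult cells). Ly6a, which encodes Sca1, was lower in fetal cells (6.89, 6.39 and 8.72 in the same order). In limma its adjusted p was 0.0592 for wild-type fetal against adult cells and 0.0179 for knockout fetal against adult cells. Its knockout arrays read 5.59, 6.34 and 7.25, the first of them below background. Of 14 measured stem and progenitor markers 13 lay above background in each group, and of 9 markers of mature lineages 1, 1 and 0. Above it also lay 6, 6 and 5 of 13 hepatocyte and 6, 6 and 5 of 10 endothelial markers. For macrophages these were 2, 2 and 3 of 10, for erythroid cells 1, 2 and 2 of 7, and for granulocytes 3, 4 and 5 of 9. The summed hepatocyte intensity ran from 843 to 1277, 884 to 897 and 1007 to 1348. What other cells add to the values of the 7 genes was not tested. Background was the 95th percentile of 980 olfactory receptor genes, 5.97 for averages over a gene's probe sets and 6.13 for single probe sets. Replicate arrays of a group correlated across genes at 0.945 to 0.972.

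The promoters of the 4 genes whose fetal arrays all lay above the adult arrays are shown to set side by side the sequence around their start sites. Each runs from 250 bases before to 50 bases after the transcription start, 5′ to 3′ on the gene's strand, from RefSeq (GRCm38.p6). Capitals mark the motif CCAAT, the motif GGGCGG, called a GC box, and the CArG box, known as the site of serum response factor in many actin genes, each on either strand. The windows are chr3:121426291-121426590 (plus strand) for Cnn3, chr2:143915081-143915380 (plus strand) for Dstn, chr10:79988350-79988649 (plus strand) for Cnn2 and chr19:5490205-5490504 (plus strand) for Cfl1.
Cnn3: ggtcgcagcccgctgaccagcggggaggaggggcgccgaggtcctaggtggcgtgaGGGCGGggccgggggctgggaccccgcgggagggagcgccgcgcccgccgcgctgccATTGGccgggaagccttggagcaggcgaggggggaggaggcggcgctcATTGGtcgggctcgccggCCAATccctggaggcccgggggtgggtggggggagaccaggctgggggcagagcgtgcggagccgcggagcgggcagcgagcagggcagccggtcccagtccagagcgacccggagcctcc
Dstn: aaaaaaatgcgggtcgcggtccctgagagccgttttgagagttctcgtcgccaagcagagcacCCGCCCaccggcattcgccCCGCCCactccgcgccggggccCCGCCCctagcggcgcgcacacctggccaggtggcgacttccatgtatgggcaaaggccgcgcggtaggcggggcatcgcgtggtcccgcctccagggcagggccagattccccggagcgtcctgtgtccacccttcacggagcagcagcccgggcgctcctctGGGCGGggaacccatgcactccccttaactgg
Cnn2: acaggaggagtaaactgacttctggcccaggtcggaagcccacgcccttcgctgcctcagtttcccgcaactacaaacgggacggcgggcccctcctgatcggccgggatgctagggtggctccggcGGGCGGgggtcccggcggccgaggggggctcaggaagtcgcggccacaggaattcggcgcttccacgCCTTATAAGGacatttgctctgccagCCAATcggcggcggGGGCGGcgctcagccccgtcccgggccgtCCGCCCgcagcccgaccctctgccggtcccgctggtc
Cfl1: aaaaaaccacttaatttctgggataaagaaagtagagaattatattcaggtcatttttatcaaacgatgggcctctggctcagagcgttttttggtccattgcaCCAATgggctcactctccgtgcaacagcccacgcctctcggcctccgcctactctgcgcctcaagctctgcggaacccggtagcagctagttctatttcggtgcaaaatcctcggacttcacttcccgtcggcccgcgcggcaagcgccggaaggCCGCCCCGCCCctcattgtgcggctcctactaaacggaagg

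All 7 genes had a promoter in the RefSeq table. The Cnn2 window alone of the 7 holds a CArG box, which starts 56 bases before the start site and overlaps no other marked motif, whereas 1.63% of all 32851 promoter windows hold one. GGGCGG occurs 4 times in Dstn, 3 times in Cnn2, 2 times in Cfl1, where the copies share a base, and 1 time in Cnn3. It occurs 8 times in Cfl2, 3 times in Tagln2 and 0 times in Cnn1, and 35.7% of all windows hold it. CCAAT occurs 3 times in Cnn3, 1 time in Cnn2, 1 time in Cfl1 and 0 times in Dstn, against 37.4% of all windows with at least 1 copy. Cnn1 holds 2 copies, Cfl2 holds 1 and Tagln2 holds 0. None of the 7 windows holds TATAAA, which 13.6% of all windows hold. G and C make up 78.3% of the window in Cnn3, 69.7% in Dstn, 70.7% in Cnn2 and 54.7% in Cfl1, beside a median of 52.7% over all windows. The remaining genes lie above Cfl1, with 59.3% in Cnn1, 75.3% in Cfl2 and 61.3% in Tagln2. These are matches of letters in these windows and not shown to be sites of a factor.

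Dstn encodes destrin, the actin-depolymerising factor itself, which takes filaments apart and holds the monomers. Its 4 probe sets averaged 8.91, 8.57 and 8.65 in wild-type fetal cells, 8.19, 8.86 and 8.48 in knockout fetal cells and 6.28 and 5.50 in adult cells. All 6 fetal arrays lay above both adult arrays. The means were 8.71 ± 0.18 (SD, n = 3), 8.51 ± 0.34 (SD, n = 3) and 5.89 ± 0.55 (SD, n = 2), and the adult mean lay below background. Wild-type fetal cells thus held at least 5.999-fold and knockout fetal cells at least 5.23-fold the adult level, measured differences of 2.82 and 2.62. In bulk samples such as these, fewer cells that hold an RNA and less of it per cell cannot be told apart.

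The single probe sets of Dstn all showed the same order. Each of the 4 was higher in every fetal array than in either adult array, by 2.85, 3.32, 3.59 and 1.51 in wild-type and by 2.78, 2.98, 3.48 and 1.25 in knockout fetal cells. Over all probe sets of the array, 12.8% were higher without overlap in wild-type fetal than in adult cells, and 18.4% in knockout fetal than in adult cells. The second read 10.41, 10.13 and 9.81 in wild-type fetal cells and 7.49 and 6.10 in adult cells. The fourth read 8.59, 8.26 and 8.16 in wild-type fetal cells and 7.60 and 6.05 in adult cells, so the 2 adult arrays differed from each other more than the 3 wild-type fetal arrays did.

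**Figure D1:**
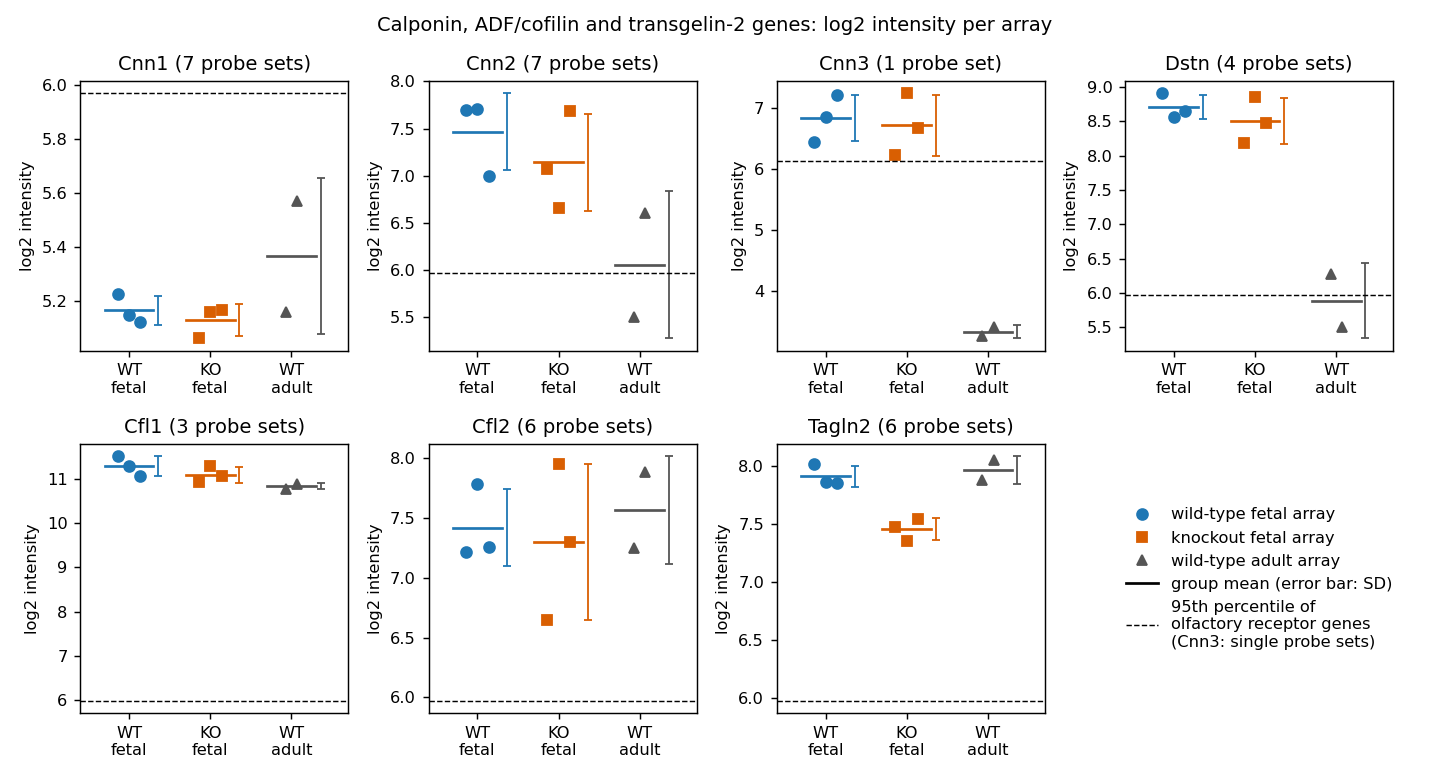
Log2 intensity (vertical axes, each with its own range) of the 7 genes, averaged over probe sets, on each of 8 arrays, with lines at the group means and the background percentile dashed (5.97, and 6.13 for Cnn3 with its 1 probe set). Dstn, Cnn3, Cnn2 and Cfl1 lie higher on all fetal arrays than on both adult arrays, Tagln2 lies lowest on the 3 knockout arrays, and Cnn1 stays below the dashed line.

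Cofilin 1, the product of Cfl1, is the form of non-muscle cells, and it read 11.52, 11.30 and 11.08 in wild-type fetal cells, 10.94, 11.29 and 11.07 in knockout fetal cells and 10.79 and 10.90 in adult cells. Every fetal array lay above both adult arrays, by as little as 0.04 for knockout array 1. The means of 11.30 ± 0.22 (SD, n = 3), 11.10 ± 0.18 (SD, n = 3) and 10.84 ± 0.08 (SD, n = 2) put wild-type fetal cells 1.375-fold and knockout fetal cells 1.20-fold above adult cells. Of its 3 probe sets, 2 were higher without overlap in wild-type fetal cells, by 0.65 and 0.52, and the other differed by 0.21. With the median of its probe sets the difference of knockout fetal from adult cells turned to -0.02.

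Cfl2 encodes cofilin 2, the form best known from muscle. It read 7.21, 7.79 and 7.26 in wild-type fetal cells, 6.65, 7.95 and 7.30 in knockout fetal cells and 7.25 and 7.89 in adult cells. The 3 groups overlapped throughout, with means of 7.42 ± 0.32 (SD, n = 3), 7.30 ± 0.65 (SD, n = 3) and 7.57 ± 0.45 (SD, n = 2). Its 6 probe sets differed between wild-type fetal and adult cells by -0.94 to 0.78, none without overlap. The spread was widest in the third, where the knockout arrays read 5.40, 9.27 and 8.04.

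Among the calponins, Cnn3, the acidic form of non-muscle cells, was read by a single probe set. It stood at 6.45, 6.85 and 7.22 in wild-type fetal cells, 6.23, 7.24 and 6.67 in knockout fetal cells and 3.25 and 3.41 in adult cells. All 6 fetal arrays lay above the background of single probe sets, both adult arrays lay below it, and the groups of fetal and adult arrays were separated by 2.82 on the log2 scale. Against that background, wild-type fetal cells held at least 1.635-fold and knockout fetal cells at least 1.499-fold the adult signal, with measured differences of 3.51 and 3.38. Of the olfactory receptor probe set values, 4.17% lay above the lowest fetal value of Cnn3.

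The place of that probe set on the array bears on every Cnn3 value. Probe sets of this array are numbered largely along the chromosomes, and 99.9% of consecutive probe sets with a named gene belonged to the same chromosome. RefSeq puts Cnn3 on chromosome 3, but the nearest named genes on either side of its probe set, Ankra2, Btf3 and Foxd1 before it and Gm807, Zfp366 and Mrps27 after it, all lie on chromosome 13. Of 17255 genes with a chromosome in RefSeq, 27 (0.156%) had all their probe sets set apart from their 6 neighbours in this way, and Cnn3 was the only one of the 7 genes. Which transcript the probe set reads was not tested, and its values are those of the probe set annotated as Cnn3.

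Cnn2, the calponin of blood and other non-muscle cells, read 7.70, 7.70 and 6.997 in wild-type fetal cells, 7.07, 6.66 and 7.69 in knockout fetal cells and 5.50 and 6.60 in adult cells. All 6 fetal arrays lay above both adult arrays, but the lowest knockout array exceeded the higher adult array by only 0.06. The means were 7.47 ± 0.41 (SD, n = 3), 7.14 ± 0.52 (SD, n = 3) and 6.05 ± 0.78 (SD, n = 2), 2.67-fold and 2.13-fold above the adult mean in wild-type and knockout fetal cells. One adult array decided much of the size: the difference of wild-type fetal from adult cells was 1.42 with both adult arrays, 0.86 without adult array 1 and 1.97 without adult array 2.

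The 7 probe sets of Cnn2 did not move as one. The fifth read 8.06, 9.25 and 7.19 in wild-type fetal cells, 8.91, 7.57 and 8.65 in knockout fetal cells and 3.20 and 5.32 in adult cells, where both arrays lay below background (measured differences of 3.91 and 4.12). The sixth was higher without overlap as well, by 1.29 and 1.88. The seventh read between 8.89 and 9.91 on all 8 arrays and differed by 0.05 between wild-type fetal and adult cells. Some varied by several log2 units within a group, as in the wild-type fetal readings of 8.53, 6.60 and 4.10 for the third. RefSeq also lists a pseudogene, Cnn2-ps, and whether its RNA adds to any of these probe sets was not tested.

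**Figure D2:**
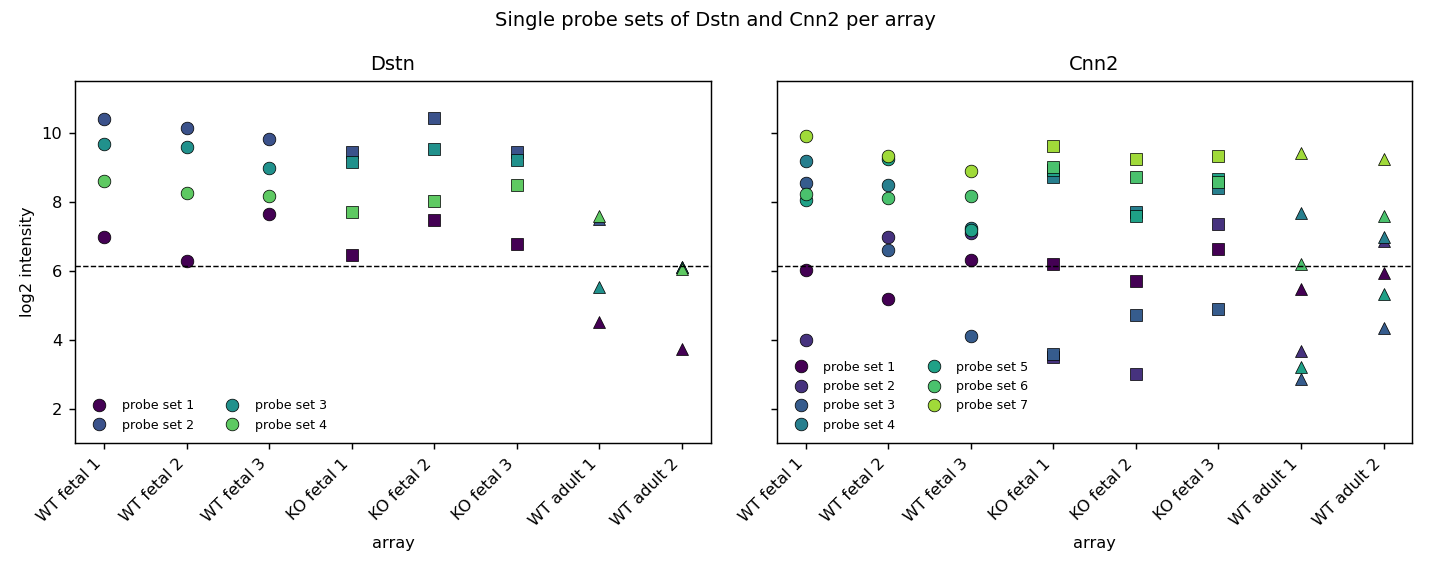
Log2 intensity (vertical axis) of each probe set of Dstn (left, 4) and Cnn2 (right, 7) on each of 8 arrays; colours mark probe sets, circles, squares and triangles the wild-type fetal, knockout fetal and adult groups, and the dashed line the background of single probe sets (6.13). All 4 Dstn probe sets drop in the adult arrays, whereas the seventh of Cnn2 lies between 8.89 and 9.91 and another, the fifth, falls to 3.20 and 5.32.

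Cnn1, the calponin of contractile smooth muscle, lay below background on all 8 arrays when averaged over its probe sets. The averages ran from 5.06 to 5.57, with group means of 5.17 ± 0.05 (SD, n = 3), 5.13 ± 0.06 (SD, n = 3) and 5.37 ± 0.29 (SD, n = 2), and no fold is given. Single probe sets were brighter: 4 of the 7 had a group mean above 6.13, and the sixth had means of 6.40, 6.28 and 6.28. The seventh had means of 5.94, 6.38 and 6.83 in wild-type fetal, knockout fetal and adult cells, and its wild-type fetal arrays lay below all arrays of both other groups. By their averages, other defining smooth muscle genes were below background in every group: Acta2 at means of 4.71, 4.77 and 4.84, Tagln at 5.13, 5.25 and 5.56, and Myh11 at 5.62, 5.84 and 5.89. Of 15 mesenchymal and smooth muscle markers, 3 lay above background in wild-type fetal, 4 in knockout fetal and 4 in adult cells, and their summed intensity ran from 683 to 830, 703 to 780 and 718 to 779. Postn was the only one called between wild-type fetal and adult cells (2.03 higher, limma, adjusted p = 0.017), beside 2.36% of all genes called higher. It was also the only one called between knockout fetal and adult cells (1.57 higher, limma, adjusted p = 0.0259), beside 5.80% of all genes.

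Tagln2, a calponin relative that binds and steadies actin filaments in blood cells, was the one gene whose knockout arrays stood apart from wild-type fetal arrays. It read 8.01, 7.86 and 7.85 in wild-type fetal cells, 7.47, 7.35 and 7.54 in knockout fetal cells and 7.87 and 8.05 in adult cells. All 3 knockout arrays lay below all 5 wild-type arrays, fetal and adult, and the wild-type fetal and adult arrays overlapped. The means were 7.91 ± 0.09 (SD, n = 3), 7.45 ± 0.10 (SD, n = 3) and 7.96 ± 0.12 (SD, n = 2). The knockout mean was 1.37-fold below the wild-type fetal mean (log2 difference -0.46, SE 0.14, 95% interval -0.77 to -0.14). This difference had an unadjusted p of 0.00927 and did not pass over all genes (limma, adjusted p = 0.627).

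The probe sets of Tagln2 carried the difference unevenly. Between knockout and wild-type fetal cells they differed by -1.04 to 0.29, with 4 of 6 lower and 1 lower without overlap, beside 6.57% of all probe sets. Among the other genes' probe sets, the fifth of Cfl2 was lower without overlap in this comparison, and the seventh of Cnn1 and the sixth of Cnn2 were higher, also beside 6.57%. The Tagln2 probe set lower without overlap, the fourth, read 9.28, 8.35 and 8.74 in knockout cells and 9.83, 9.61 and 10.03 in wild-type fetal cells. In the third of Tagln2, knockout arrays read 6.84, 7.27 and 9.25, so 1 array lay above every wild-type fetal array.

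The comparison of the fetal groups asks whether these genes change with the loss of Hmga2. Of the 7 genes, 0 passed an adjusted p of 0.05 in limma, where 0.0100% of all genes did (2 genes), and 1, Tagln2, stood under an unadjusted p of 0.05, beside 7.63% of all genes. Tagln2 was also the one gene lower without overlap, beside 7.86% of all genes, and none was higher without overlap, beside 5.94%. By gene averages all 7 differences were below 0, as were 53.2% of all genes, with a median of -0.20 beside -0.02 over all genes. For Cnn2, 4 of 7 probe sets went the other way. The differences share the same 6 arrays and are not independent of each other. Cnn3 and Dstn were chosen partly for high values on the wild-type arrays among them, which can lower their differences, so nothing is read from the shared direction.

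The sizes that these arrays allow are given by the intervals. For Cnn3 the difference of knockout from wild-type fetal cells was -0.12 (SE 0.27, 95% interval -0.74 to 0.49, adjusted p = 0.912). For Dstn it was -0.20 (SE 0.24, 95% interval -0.74 to 0.35, adjusted p = 0.845). The interval was widest for Cnn2, from -1.11 to 0.46 around -0.33 (limma, adjusted p = 0.821). Of the 7 probe sets of Cnn2, however, 4 were higher in knockout cells, with differences from -2.01 to 0.59. The median of its probe sets gave 0.38. For Cfl2 the interval ran from -0.85 to 0.61 around -0.12 (limma, adjusted p = 0.930). For Cfl1 it ran from -0.58 to 0.18 around -0.20 (adjusted p = 0.768), and for Cnn1, below background in both groups, the adjusted p was 0.958. The knockout arrays themselves differed, with array 1 lowest and array 2 highest for Cnn3, Dstn, Cfl1 and Cfl2.

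Between fetal and adult cells, 4 of the 7 genes were higher without overlap in wild-type fetal cells, beside 15.7% of all genes, and 0 were lower, beside 20.1%. In knockout fetal cells 4 were higher than in adult cells, beside 20.6% of all genes, and 1, Tagln2, was lower, beside 29.6%. Both comparisons use the same 2 adult arrays. The medians over the 7 genes were 0.46 and 0.26, beside -0.06 and -0.07 over all genes. Since Cnn3 and Dstn were chosen for their fetal level, nothing is read from these counts.

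**Figure D3:**
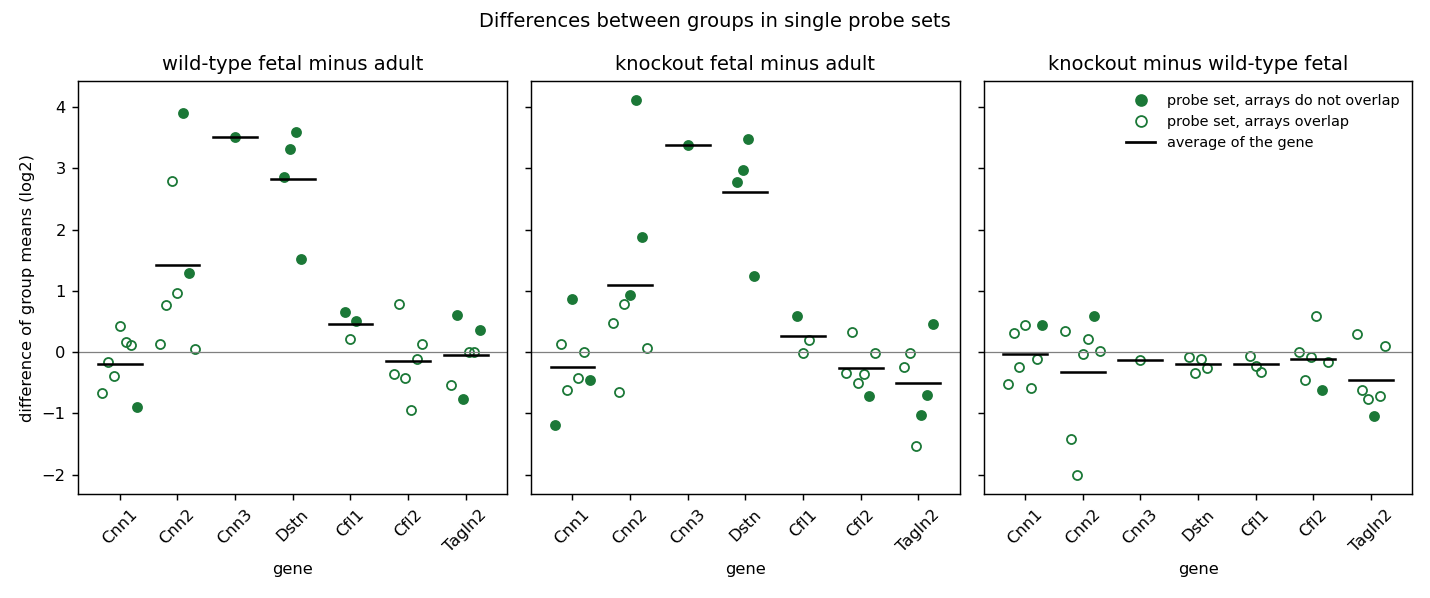
Differences of group means on the log2 scale (vertical axis) for every probe set of the 7 genes, filled where the arrays of the groups do not overlap, with a bar at the gene average, in 3 panels for the pairs of groups. All 4 Dstn points and the Cnn3 point lie well above 0 in both comparisons with adult cells, Cnn2 reaches 3.91 and 4.12, and in the knockout comparison the averages of all 7 genes lie below 0.

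By gene averages, the order of the 3 groups fell into 2 kinds. For Cnn2, Cnn3, Dstn and Cfl1 it was wild-type fetal, knockout fetal, adult from high to low. For Dstn and Cnn3 the 2 fetal groups differed by 0.20 and 0.12, less than their largest group SD of 0.55 and 0.51, and the step to adult cells was 2.62 and 3.38. For Cnn2 and Cfl1 the fetal groups likewise differed by less than the largest SD (0.33 beside 0.78 and 0.20 beside 0.22), and the steps to adult cells were 1.09 and 0.26. For Cnn1, Cfl2 and Tagln2 the order was adult, wild-type fetal, knockout fetal. Of those, the gaps exceeded the largest SD only in the step of 0.46 from wild-type to knockout fetal cells in Tagln2 (largest SD 0.12). The gaps of Cnn1 and Cfl2 all lay within their spread.

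Dstn and the probe set annotated as Cnn3 followed each other over the 8 arrays (r = 0.964), but less over the 6 fetal arrays (r = 0.512), since the 2 adult arrays stand apart from the rest. Dstn and Cfl1 had r = 0.745 over 8 and 0.850 over 6 arrays. Cnn1, below background on all 8 arrays, had similar values over the same 6 arrays, 0.826 with Dstn and 0.858 with Cfl1. Nothing is therefore read from the value of Dstn and Cfl1. Among 1493 genes above background in at least 1 group and spanning at least 1 log2 unit between group means, the closest to Dstn were Lypla1, Pdha1, Psmd2, Ctnnal1 and Elp2 (r from 0.976 to 0.991). Over the 6 fetal arrays they had, in that order, 0.977, 0.930, 0.405, 0.633 and 0.299. The closest to Cnn3 were Hprt, Cul2, Cnrip1, Dlgap5 and Cip2a (r from 0.985 to 0.989), which over the fetal arrays had 0.953, 0.756, 0.821, 0.858 and 0.571. With 182 and 248 of the 1493 genes above 0.9, such values are common in this design, and all points share the same arrays.

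Some genes of the cell cycle and of platelets differed in the same comparisons. All 19 measured genes of the G2 and M phases lay above background, with a summed intensity of 7452 to 9621 in wild-type fetal, 8929 to 10104 in knockout fetal and 3623 to 5031 in adult cells. Of these, 10 of 19 were called higher in wild-type fetal than in adult cells, beside 2.36% of all genes, and 13 of 19 in knockout fetal cells, beside 5.80%. The 10 megakaryocyte and platelet markers had summed intensities of 664 to 714, 723 to 874 and 1101 to 1228. Of these 10 markers 5, 6 and 8 lay above background, and 2 of 10, Pf4 and Itga2b, were called lower in both fetal groups than in adult cells, beside 0.832% and 3.11% of all genes. Pf4 had means of 5.61, 6.31 and 8.20, while others such as Gp9 (6.71, 7.01 and 6.65) did not pass. Their part in the results on the 7 genes was not tested.

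The wider actin machinery was read from 6 lists of genes: the cofilin cycle of kinases, phosphatases and cofactors, smooth muscle contractile genes, serum response factor with its partners and targets, actin monomers and filaments, the Arp2/3 complex with other nucleators, and capping, severing and crosslinking proteins. Of 137 listed genes 130 were measured, and 28 lay below background in every group. Between wild-type fetal and adult cells 5 passed as higher in fetal cells (3.85%, beside 2.36% of all genes) and 1 as lower (0.769%, beside 0.832%). The median difference was 0.04 beside -0.06 over all genes. The other 124 genes did not pass.

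Of 28 cofilin cycle genes, 2 passed as higher and 0 as lower in wild-type fetal cells. Pak2, a kinase that activates LIM kinase upstream of cofilin, read 9.59, 9.49 and 9.46 in wild-type fetal cells and 8.44 and 8.67 in adult cells. All 3 fetal arrays lay above both adult arrays, a 1.95-fold rise (log2 0.96, SE 0.17, adjusted p = 0.0204). Twf1, a twinfilin that binds actin monomers and carries a fold related to cofilin, rose 1.89-fold (0.92, SE 0.18, adjusted p = 0.0325), from 7.80 to 8.72. The LIM kinases and slingshot phosphatases of the list did not pass.

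Among 27 capping, severing and crosslinking genes, 2 passed as higher. Fscn1, the bundling protein fascin, read 7.56, 7.40 and 6.84 in wild-type fetal cells and 5.60 and 5.86 in adult cells, both below background. Its rise was at least 2.46-fold (log2 1.54, SE 0.23, adjusted p = 0.0134). Evl, which promotes filament elongation at the leading edge, rose 2.19-fold (1.13, SE 0.23, adjusted p = 0.034), with fetal readings of 8.31, 7.74 and 8.36 above adult readings of 7.03 and 6.99.

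Of 32 genes of the Arp2/3 complex and other nucleators 18 stood above 0 and 1 passed. This was Spire1, which nucleates filaments, higher by at least 1.62-fold (1.30, SE 0.24, limma, adjusted p = 0.0266). The measured subunits of the Arp2/3 complex, a set not planned beforehand, all stood above 0 and did not pass. They ran from 0.16 for Arpc2 to 1.13 for Arpc5l, whose adult mean of 4.87 lay below background. Their smallest adjusted p in limma was 0.0704, for Arpc4 (0.68). Others of the list stood below 0, such as Diaph1 (-0.76), Fmnl2 (-0.67) and Nckap1 (-0.47). Of all genes 56.7% stood below 0 in this comparison. Of 17 serum response factor genes 1 passed, Egr1, an immediate-early transcription factor, lower by 1.91-fold (-0.93, SE 0.18, adjusted p = 0.0316). It read 7.77, 7.36 and 7.73 in wild-type fetal cells and 8.67 and 8.43 in adult cells. None of 15 smooth muscle genes passed, of which 9 lay below background in every group, and Tpm2, a tropomyosin, had the smallest p of those above it (0.94, adjusted p = 0.0897). Synpo2, below background in both groups, had -0.46 (adjusted p = 0.243). None of 11 monomer and filament genes passed, where Tpm4 had 1.19 (adjusted p = 0.0966) and Tmod3, which caps pointed ends, 0.33 (adjusted p = 0.391). In limma, 30 of the 130 genes stood at an unadjusted p under 0.05 (23.1%), beside 3713 of all 19958 genes. By list these were 10 of 32 Arp2/3 and nucleator genes, 8 of 27 capping, severing and crosslinking genes and 6 of 28 cofilin cycle genes. The rest were 3 of 17 serum response factor genes, 2 of 15 smooth muscle genes and 1 of 11 monomer and filament genes.

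These 6 calls rest on the spread shared by all 3 groups. When the 2 groups were fitted alone, 0 of 130 genes passed in limma. At an unadjusted p under 0.05 stood 28 of them, beside 3123 of all 19958 genes. Without adult array 1 or without wild-type fetal array 3, 1 gene passed, and 2 passed without wild-type fetal array 1 or 2.

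**Figure D4:**
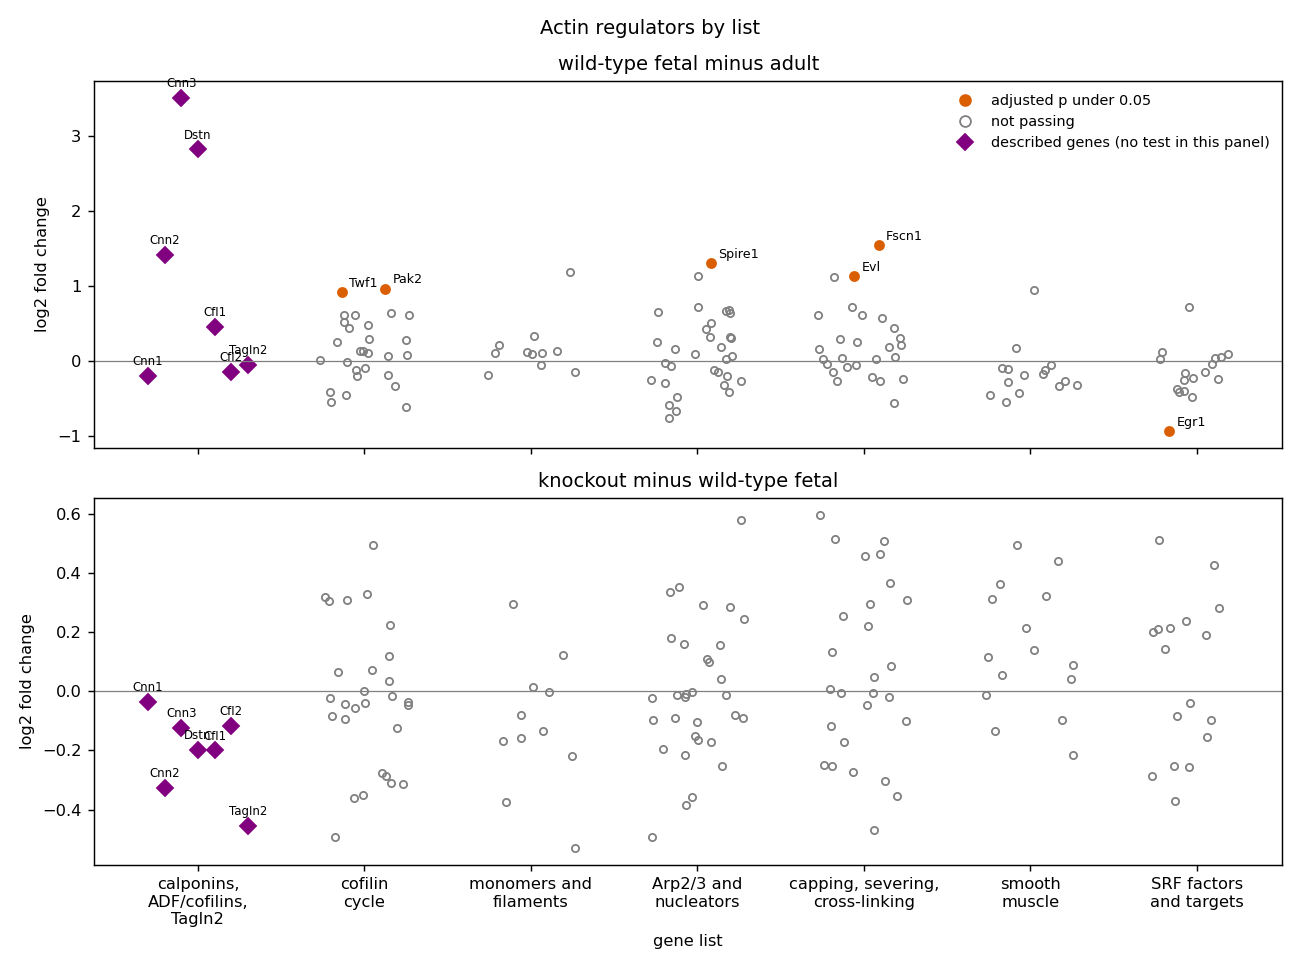
Log2 fold changes (vertical axes, each with its own range) of the measured genes of the 6 actin lists and of the 7 genes (purple diamonds) for wild-type fetal minus adult cells (top) and knockout minus wild-type fetal cells (bottom); filled circles passed limma's adjusted p of 0.05. In the top panel 6 genes of the lists are filled, and in the bottom panel 0 are.

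Between knockout and wild-type fetal cells 0 of the 130 other actin genes passed in limma, and 10 stood at an unadjusted p under 0.05 (7.69%, beside 7.63% of all genes). The 2 genes with the smallest p in each list follow as differences that did not pass. The smallest p of all belonged to Pls3, which encodes plastin 3 and bundles filaments (0.60, adjusted p = 0.604), with means of 5.14 and 5.74 below background in both groups, as for Synpo2, a synaptopodin relative (0.50, adjusted p = 0.632). Above 0 stood Vcl, the adhesion protein vinculin (0.51, adjusted p = 0.632), Tpm1, a tropomyosin (0.44, adjusted p = 0.632), Wasl, which activates the Arp2/3 complex (0.58, adjusted p = 0.632), and Myh9, the heavy chain of non-muscle myosin (0.43, adjusted p = 0.657). Below 0 stood Capg, which caps filaments (-0.47, adjusted p = 0.632), and Arpc4, a subunit of the Arp2/3 complex (-0.38, adjusted p = 0.632). Pfn1, the monomer-binding profilin, had -0.53 (adjusted p = 0.655) and Actb, which encodes beta-actin, -0.37 (adjusted p = 0.668). From the cofilin cycle list came Cttn, the branch-binding protein cortactin (-0.36, adjusted p = 0.656), and Pak4, a kinase (-0.49, adjusted p = 0.657).

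Between knockout fetal and adult cells 11 of the 130 genes passed as higher (8.46%, beside 5.80% of all genes) and 4 as lower (3.08%, beside 3.11%), with a median of 0.03. The capping, severing and crosslinking list held 5 of the rises, among them Rdx, the membrane linker radixin (1.18, SE 0.23, adjusted p = 0.0188), and Add1, which encodes an adducin (1.07, SE 0.25, adjusted p = 0.0333). Vcl rose by 1.23 (SE 0.20, adjusted p = 0.0115) and Tpm4 by 1.48 (SE 0.34, adjusted p = 0.0309). The 4 that passed as lower were Egr1, Diaph1, Nckap1 and Gsn, by 0.72, 0.78, 0.83 and 0.56. Their adjusted p in limma, in that order, was 0.0431, 0.0409, 0.0314 and 0.0499, close to the threshold of 0.05. Nckap1 lay below background in every group, with means of 5.17, 4.81 and 5.65 in wild-type fetal, knockout fetal and adult cells. The genes named for this comparison were chosen after their values were seen. The count ranged from 2 to 16 with single arrays left out, with 2 without knockout array 2 or adult array 1, 4 without knockout array 3, 5 without knockout array 1 and 7 without adult array 2.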

How the data were processed

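Gene expression was measured on 8 arrays in 3 groups. The deposited values are intensities on a linear scale, made by the authors with RMA, per the submitters' processing notes, which name no version. In the deposited value table, 225993 probe sets had intensities between 3.03 and 13252. Intensities were log2 transformed with no further normalization, and the array medians lay between 6.20 and 6.27. A second deposited table of intensities, with 199508 exon rows, served as an alternative.

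Gene names came from the platform annotation, in which 208881 probe sets had 1 symbol, 1668 had several and 15444 had none. The 1-symbol probe sets gave 19958 genes, of which RefSeq (GRCm38.p6) holds 17255 under the same symbol and 2585 under a newer one, while 118 were left as they were. Values of a gene's probe sets were averaged (median of 8 per gene), which can hide differences limited to some exons. Brightness depends on the probe, so no level was set against another gene's.

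Groups were compared with limma 3.58.1 in R 4.3.3 (lmFit and eBayes, all 8 arrays in 1 fit, no covariates, two-sided, Benjamini-Hochberg over all genes, threshold 0.05), tested on simulated data. Intervals are 95% intervals of the moderated fit. Where the dimmer group's mean lay below the 95th percentile of olfactory receptor genes, each of its arrays below it was raised to it, so that the printed fold is a lower bound (at least N-fold). No fold was computed with both means below it. Sequences were searched with Python 3.11.15.

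Alternatives were a robust variance with a trend, a block for replicate numbers, a fit of 2 groups, medians of probe sets, filters on dim genes or probe sets, quantile normalization, median centring, the exon table, array weights and each array left out. The members, lists and markers were chosen with earlier results of these data known. Named were all 7 members; per actin list and comparison of wild-type fetal with adult or knockout cells, up to 4 called genes with the smallest p, or 2 where none was called; and the 5 genes most correlated with Dstn and with Cnn3. The sources used here name no scan date or other batch. The number of arrays limits the precision.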

Additional observations from a re-analysis of the deposited data

How the results depend on the processing

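Over 18 settings the difference of wild-type fetal from adult cells stayed between 3.32 and 3.70 for Cnn3 and between 2.43 and 3.21 for Dstn, and no member passed between the fetal groups (lowest adjusted p of Tagln2 0.219, highest 0.985). Of all genes, the counts called were 2 between the fetal groups, 637 between wild-type fetal and adult cells and 1779 between knockout fetal and adult cells. They became 120 for wild-type fetal against adult cells with only those groups fitted, 179 and 762 for the comparisons with adult cells with medians of probe sets, and 1, 322 and 1103 in the exon table. Leaving out single arrays gave 2 to 3, 225 to 574 and 482 to 2437. Of 130 other actin genes, 6 were called between wild-type fetal and adult cells and 15 between knockout fetal and adult cells. These became 0 for the first with only its groups fitted, 2 and 8 with medians, and 2 for the first in the exon table, and 1 to 6 and 2 to 16 with single arrays left out. Differences of members between the fetal groups changed sign, none of them passing: Cnn2 to 0.38 with medians, Cfl2 to 0.25 in the exon table, and, without single arrays, Cnn3 between -0.39 and 0.12 and Cfl2 between -0.44 and 0.21. Cfl1 became -0.0151 between knockout fetal and adult cells with medians. The cause was not tested. Across genes, deviations of same-numbered samples from their group means correlated at -0.02 to 0.02 between the fetal groups. With adult samples the correlations were 0.05 to 0.11 for wild-type and -0.04 to -0.03 for knockout fetal samples. Samples of unlike number were not compared in this way, so whether the numbers pair samples stays unknown. The replicate number as a block left Tagln2 at -0.46 (adjusted p = 0.627) and gave 185 and 489 genes called in the comparisons with adult cells, 2 and 3 of them other actin genes. Cnn1 had no value once dim genes were removed. The exon table holds 2 of 4 Dstn, 2 of 3 Cfl1, 2 of 6 Cfl2 and 4 of 6 Tagln2 probe sets. Values near background, such as adult Dstn and Cnn3 and all of Cnn1, limit how large a fold can be stated.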
